A study of Mus musculus with 9 samples.

Results

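RNA of single bone marrow cells was compared between old mice given CASIN, a small molecule that inhibits the activity of the small GTPase Cdc42, and young control mice. The 6 libraries of this comparison, 3 CASIN and 3 young, were taken from the 9 libraries of the study by their labels. They held 10943 of the 15975 cells that passed the filters on unique molecular identifiers (UMIs), genes and mitochondrial RNA. Young mice were 10 to 12 weeks old and had been injected with the carrier, cyclodextrin. CASIN mice were more than 80 weeks old and had received 4 intraperitoneal injections of 25 mg/kg CASIN in cyclodextrin, 1 every 24 h. All mice were of the C57BL/6 strain, and all cells were sorted as lineage-negative, cKit+ and Sca1+ (LSK), viably frozen and thawed before the libraries were made. The groups therefore differed in age and in treatment, and the contrast of CASIN with young cannot tell these apart. How many mice went into a library is not given in the sources used here, so p-values measure the spread between these libraries. Aged control libraries, whose levels are given beside some results, came from mice at least 80 weeks old that were injected with the carrier alone.

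LSK cells hold the hematopoietic stem cells of the bone marrow together with the multipotent progenitors that arise from them. Stem cells divide rarely and carry Procr, the endothelial protein C receptor, and Slamf1 on their surface, whereas lymphoid-primed progenitors divide often and carry Flt3, a cytokine receptor. With age, stem cells become more numerous in the marrow and turn on a set of genes shared with platelets and endothelium, such as Vwf and Selp, while fewer progenitors are primed for lymphocytes.

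The libraries fell into 2 sequencing batches, which stood apart. Batch 1 held young replicates 1 and 2 and CASIN replicates 1 and 2, and batch 2 held young replicate 3 and CASIN replicate 3. Of the aged controls, replicate 1 was in batch 1 and replicates 2 and 3 in batch 2. Their CPM levels are therefore not matched by batch to those of the other groups. The share of barcodes over the limit of 10% mitochondrial UMIs was 20.7% and 10.96% in the young and 40.6% and 24.5% in the CASIN libraries of batch 1, and 59.1% in the young and 62.0% in the CASIN library of batch 2. It was thus higher in CASIN within each batch, and its part in the results was not tested beyond the counts given with a limit of 5%. Xist, the RNA of the inactive X chromosome, was at most 0.114 CPM in batch 1, where CPM is the count of a gene relative to all UMIs of the library, and at least 2324 CPM in batch 2, and the Y-linked Eif2s3y was at 76.6 to 81.5 CPM in batch 1 and listed at 0 in batch 2. Thus each batch held young and CASIN cells of 1 sex pattern, and batch and sex cannot be told apart. The batch was a term of every fit across genes. Kept cells numbered 2158, 2211 and 1212 in young and 1118, 1803 and 2441 in CASIN replicates 1 to 3, with a median of 9558 to 14608 UMIs a cell. Kit, a defining marker of the sort, had a UMI in 69.4% to 89.4% of kept cells and Ly6a, the gene of Sca1, in 54.5% to 76.2%, whereas Cd8a and Ly6g of mature blood cells had one in at most 0.0555%. A small set of 67 cells with over 5% immunoglobulin UMIs was spread over the 6 libraries, 6 to 24 in each. In CASIN replicate 1, 7.69% of kept cells had a barcode also found in another library, against 0.413% to 2.77% in the other 5 libraries.

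To compare the groups, UMIs were summed over all kept cells of each library and tested with edgeR's quasi-likelihood test, with Benjamini-Hochberg adjustment over all genes tested. Of 13276 genes, 1709 (12.9%) differed at an adjusted p below 0.05, 1144 higher in CASIN (8.62%) and 565 lower (4.26%). The rises were larger than the falls: 582 called genes were higher by more than 1 on the log2 scale and 25 were lower by more than that. All called genes moved the same way in both batches. In sums over all cells, fewer cells of a type and less RNA per cell cannot be told apart. The count fell to 624 genes without young replicate 2, to 748 without young replicate 1, to 819 without CASIN replicate 1 and to 455 with a mitochondrial limit of 5%.

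**Figure D1:**
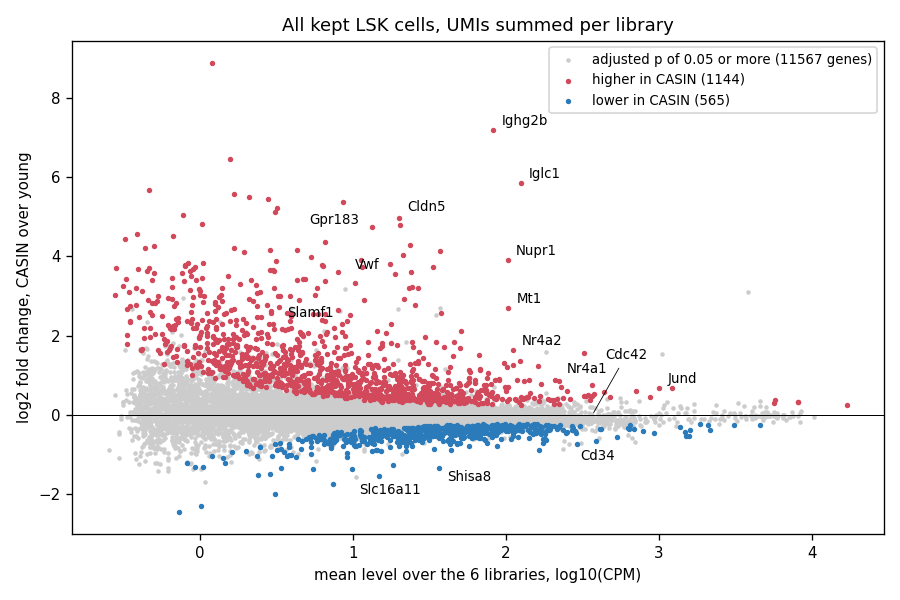
Each point is a gene in all kept LSK cells, plotted by its mean level over the 6 libraries (log10 CPM) and its log2 fold change of CASIN over young, with called genes in red (1144 higher in CASIN) and blue (565 lower). Rises above 4 are seen from about 1 to 100 CPM, with the immunoglobulin genes Ighg2b and Iglc1 near the top, whereas most falls are smaller than 1, and Cdc42 lies on the line of no change.

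The largest rises among genes of at least 10 CPM, apart from the immunoglobulin genes Ighg2b and Iglc1, were those of Cldn5, Clca3a1 and Gpr183. Clca3a1, an endothelial chloride channel accessory gene (chromosome 3, 144729677 to 144760977, minus strand, GRCm38), was at 1.05, 1.33 and 2.11 CPM in young and at 45.8, 46.7 and 26.1 CPM in CASIN replicates 1 to 3. The groups did not overlap, and the log2 fold change was 4.78 (SE 0.29, edgeR adjusted p = 0.000169). Ramp2, which pairs with the receptor of adrenomedullin, stood at 2.85, 2.19 and 2.16 CPM in young and at 45.4, 33.7 and 41.5 CPM in CASIN libraries. All 3 CASIN libraries were above all young ones, by 4.04 on the log2 scale (SE 0.16, edgeR adjusted p = 2.71e-05). Vwf, the platelet and endothelial von Willebrand factor, rose less than these and was at 1.71, 2.32 and 5.60 CPM in young and at 33.8, 27.8 and 41.8 CPM in CASIN libraries, again with no overlap, and its log2 fold change was 3.56 (SE 0.22, edgeR adjusted p = 0.000193). No overlap in this direction was found for 7.02% of all genes tested. Cldn5, a tight junction gene, rose by 4.97 but depended on the batch for its level, with 65.8 and 49.9 CPM in CASIN replicates 1 and 2 and 1.55 CPM in CASIN replicate 3, so that the groups overlapped. Gpr183, a receptor for oxysterols, Cavin2 of the caveolar coat, Tm4sf1, Nupr1, a stress-induced chromatin protein, Sbspon and Ehd3 rose by 4.74, 4.28, 4.14, 3.90, 3.90 and 3.74.

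Of 34 genes listed as raised in aged stem cells, 33 were tested, and 31 rose with none falling. Their median log2 fold change was 2.78, beside -0.00101 over all genes tested, of which 8.62% were called higher. Among the smaller changes of the list were Fyb at 0.35 and Alcam, an adhesion gene, at 0.93, and among the larger ones were Matn4, a matrix gene, at 5.38 and Cldn5 at 4.97. Arap2 and Rab34 did not pass the test. Across the alternative settings between 21 and 32 members were called, except in the fit with no batch term, which called 3. The list was chosen with earlier results of these data known.

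Genes of stem cell identity moved less and in both directions. Of 25 genes, 15 rose and 2 fell, with a median of 0.70, beside 8.62% higher and 4.26% lower of all genes tested. Slamf1, a surface marker of stem cells, was at 3.99, 3.24 and 1.39 CPM in young and at 22.4, 19.1 and 5.19 CPM in CASIN libraries. The CASIN values were all higher, with the values of batch 2 the lowest in each group, and the log2 fold change was 2.38 (SE 0.16, edgeR adjusted p = 0.000287). Pdzk1ip1, Hoxb5 and Procr rose by 1.30, 2.03 and 0.77. Cd34, a sialomucin absent from most adult mouse stem cells, was at 369, 357 and 363 CPM in young and at 225, 216 and 221 CPM in CASIN libraries. It was the steadiest of these genes between batches and fell by 0.72 (SE 0.06, edgeR adjusted p = 0.000629). Of 19 tested genes of megakaryocytes and platelets, 10 rose, among them Selp (P-selectin) by 2.57 and Gng11 by 1.20, and none fell, with a median of 0.83. Pf4 and Itga2b of the same list did not pass the test. In the aged control libraries the levels were 31.1 CPM ± 26.1 (SD, n = 3) for Clca3a1, 28.3 CPM ± 18.2 for Vwf and 263 CPM ± 96.9 for Cd34.

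**Figure D2:**
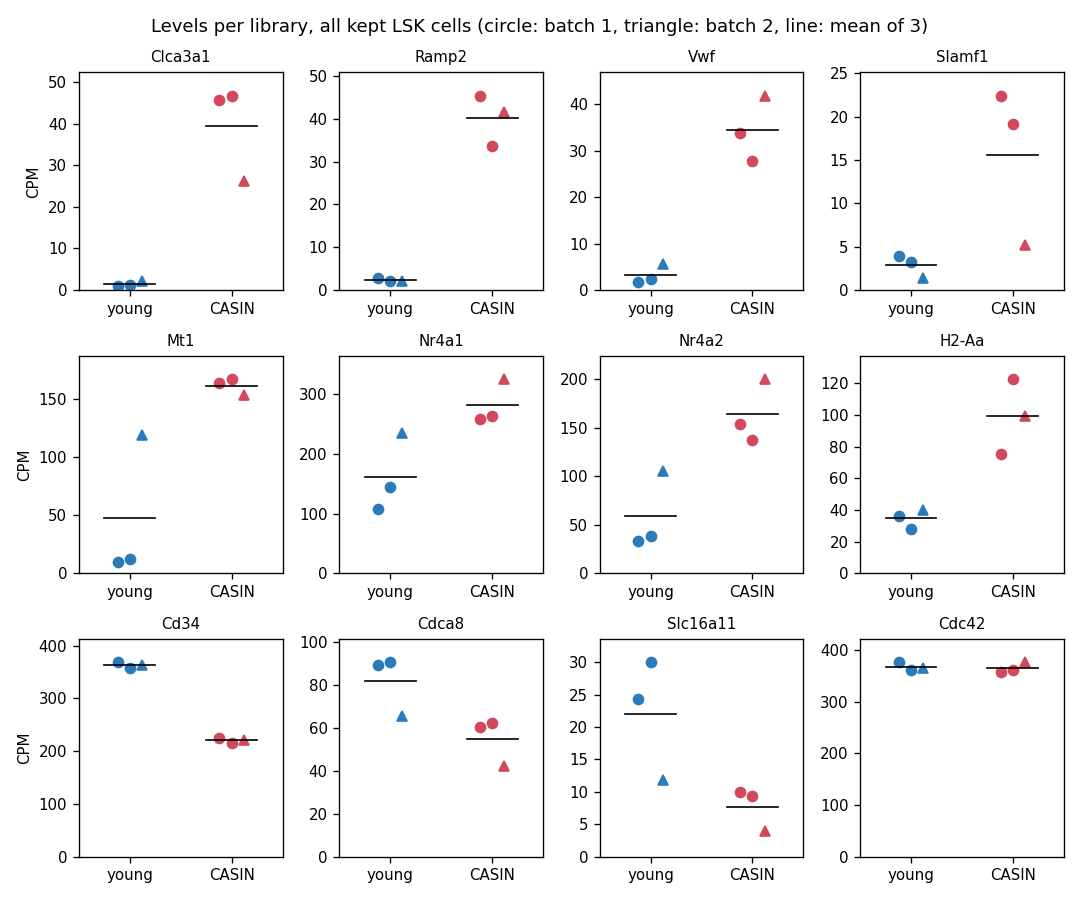
CPM of 12 genes in each of the 3 young (blue) and 3 CASIN (red) libraries, with circles for batch 1, triangles for batch 2 and a line at the mean of 3. Clca3a1, Ramp2, Vwf, H2-Aa, Nr4a1 and Nr4a2 were higher in every CASIN library than in any young library, Cd34, Cdca8 and Slc16a11 were lower in every CASIN library, and the values of Cdc42 overlapped.

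Mt1 and Mt2, neighbouring genes of the metallothioneins, small proteins that bind zinc and copper, rose together. Mt1 was at 10.2, 12.7 and 119 CPM in young and at 163, 167 and 153 CPM in CASIN libraries. Mt2 was at 0.171, 0.286 and 14.2 CPM in young and at 32.5, 29.6 and 28.1 CPM in CASIN libraries. For both genes young replicate 3 stood far above the other young libraries and still below every CASIN library. The log2 fold changes were 2.71 (SE 0.68, edgeR adjusted p = 0.0397) and 3.81 (SE 0.99, edgeR adjusted p = 0.0455). Neither passed with the replicate number as a block (adjusted p = 0.0669 and 0.0737) or without either of the young libraries of batch 1, and the log2 fold change of Mt2 was 7.06 without young replicate 3 or without CASIN replicate 3. Their promoters are shown because the genes moved together and lie side by side on chromosome 8. Each is the 300 bases from 250 before to 50 after the start of the RefSeq gene on build GRCm38.p6, both on the plus strand, chr8:94178839-94179138 for Mt1 and chr8:94172368-94172667 for Mt2. Capitals mark matches on either strand to TGCNCNC. This string is looser than the core of the metal response element, which has A or G at the first N. Some matches, such as TGCTCTC in Mt2, are therefore not that core.
Mt1: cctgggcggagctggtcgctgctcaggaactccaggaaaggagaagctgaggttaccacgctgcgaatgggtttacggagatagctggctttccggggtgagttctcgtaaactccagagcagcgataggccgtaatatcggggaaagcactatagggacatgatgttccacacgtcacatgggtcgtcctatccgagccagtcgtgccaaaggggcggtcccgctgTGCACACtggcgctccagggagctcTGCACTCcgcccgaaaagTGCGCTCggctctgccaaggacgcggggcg
Mt2: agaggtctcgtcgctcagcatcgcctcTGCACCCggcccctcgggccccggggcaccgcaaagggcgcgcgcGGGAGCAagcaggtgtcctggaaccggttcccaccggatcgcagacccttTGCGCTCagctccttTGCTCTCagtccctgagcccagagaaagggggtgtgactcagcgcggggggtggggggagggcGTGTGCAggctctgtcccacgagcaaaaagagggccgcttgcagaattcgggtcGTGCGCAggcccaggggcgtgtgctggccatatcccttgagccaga
The Mt1 window held 3 matches and the Mt2 window 6, none of them overlapping. Of 32851 mouse promoters of this length, 51.0% held at least 1 match and 2.30% held 4 or more. Among 24 genes of redox and metal defense, 8 rose and none fell, beside 8.62% called higher of all genes tested. Of the 21 listed genes with a promoter in that set, 10 (47.6%) held a match in any of theirs, a share of genes and not of promoters. Besides Mt1, Mt2 and Nupr1 the genes that rose included Gstm2, a glutathione transferase, at 3.78 and Txnip, an inhibitor of thioredoxin, at 0.62. Gpx1, Sod1, Sod2 and Hmox1 did not pass the test, and the median of the list was 0.00.

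Immediate early genes, which are transcribed within minutes of a stimulus and also during tissue handling, were higher in CASIN cells. Of 26 genes, 15 rose and none fell, with a median of 0.56, beside 8.62% called higher of all genes tested. Their summed level was 7055, 7831 and 3004 CPM in young and 11291, 11008 and 3808 CPM in CASIN libraries. These sums overlapped between batches but not within them. Nr4a1, an orphan nuclear receptor, was at 107, 145 and 235 CPM in young and at 259, 264 and 326 CPM in CASIN libraries, and Nr4a2, its close relative, was at 33.1, 38.5 and 105 CPM and at 154, 137 and 201 CPM. Neither gene's groups overlapped, although in batch 2 the young library came near the CASIN range. Nr4a1 rose by 0.85 (SE 0.15, edgeR adjusted p = 0.0112) and Nr4a2 by 1.65 (SE 0.21, edgeR adjusted p = 0.00323). In the aged control libraries Nr4a1 was at 376, 1134 and 487 CPM and Nr4a2 at 230, 496 and 211 CPM, all above the CASIN libraries. The difference of CASIN from aged libraries was not called for either gene in the fit of all 9 libraries (log2 fold change of -0.92 and -0.64, edgeR adjusted p = 0.986 for both). Socs3, a feedback inhibitor of cytokine signaling, Klf2, a factor of quiescence in blood cells, and Jund of the AP-1 complex rose by 0.80, 0.69 and 0.68. Klf2 was at 238 to 454 CPM in batch 1 and at 15.7 to 22.1 CPM in batch 2. Jun, Myc and Ier3 of the same list did not pass. With a mitochondrial limit of 5%, 9 of the 26 genes rose, and without young replicate 2 also 9.

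The promoters of Nr4a1 and Nr4a2 are shown with matches to TGACG, letters held by the cyclic AMP response element, in capitals on either strand. They lie at chr15:101266596-101266895, plus strand, and chr2:57123954-57124253, minus strand, both 300 bases of RefSeq on GRCm38.p6.
Nr4a1: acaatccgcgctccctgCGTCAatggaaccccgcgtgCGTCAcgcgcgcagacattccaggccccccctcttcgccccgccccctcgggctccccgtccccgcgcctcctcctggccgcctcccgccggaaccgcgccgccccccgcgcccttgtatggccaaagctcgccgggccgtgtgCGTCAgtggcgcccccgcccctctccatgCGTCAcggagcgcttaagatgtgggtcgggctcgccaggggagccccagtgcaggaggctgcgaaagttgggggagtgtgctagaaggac
Nr4a2: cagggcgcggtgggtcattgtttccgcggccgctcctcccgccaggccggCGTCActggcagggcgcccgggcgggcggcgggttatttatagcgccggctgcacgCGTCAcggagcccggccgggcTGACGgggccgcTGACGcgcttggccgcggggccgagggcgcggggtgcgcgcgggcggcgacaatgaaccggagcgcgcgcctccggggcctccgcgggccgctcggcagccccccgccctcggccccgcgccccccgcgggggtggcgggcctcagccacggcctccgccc
Each window held 4 matches that did not overlap. At least 1 match was found in 20.8% of all promoters and 4 or more in 0.231%. Of the 26 immediate early genes, 22 had a promoter among these, and 14 of the 22 (63.6%) held a match in any of theirs. This share is of genes and not of promoters.

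Genes of antigen presentation by major histocompatibility complex (MHC) class II rose in part. H2-Aa, its alpha chain (chromosome 17, 34282744 to 34287823), was at 35.9, 28.1 and 40.1 CPM in young and at 75.7, 123 and 99.1 CPM in CASIN libraries, with no overlap. It rose by 1.52 (SE 0.19, edgeR adjusted p = 0.00303), and its neighbours H2-Eb1 and H2-Ab1 rose by 1.69 and 0.71. Of 11 genes of the list, 5 rose and 1 fell, which was Ctss, a lysosomal protease, at -0.57. The median was 0.34. Leaving out the immunoglobulin-rich cells left the count at 5, and without either young library of batch 1 it was 2. Ciita, the factor that drives class II transcription, did not pass the test. Of 29 tested type I interferon response genes, only Ifitm3 and Ly6e rose, by 0.46 and 0.48, and the median was -0.02. Over all genes tested, 8.62% were called higher.

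Genes of the cell cycle were lower in CASIN cells. Of 34 genes of mitosis and the spindle, 24 fell and none rose, with a median of -0.53. Cdca8, a subunit of the chromosomal passenger complex, was at 89.2, 90.7 and 65.3 CPM in young and at 60.6, 62.2 and 42.4 CPM in CASIN libraries. All CASIN libraries lay below all young libraries, as in 3.79% of genes tested, and the log2 fold change was -0.58 (SE 0.06, edgeR adjusted p = 0.00204). Of 43 DNA replication genes, 19 fell and none rose, with a median of -0.46, among them Cdc45 of the replicative helicase (-0.80), the primase subunit Prim1 (-0.74) and Rrm2, which makes deoxynucleotides (-0.64). The promoter of Cdca8 is shown with its match to TTTGAA, the letters of the cell cycle genes homology region, in capitals, at chr4:124936868-124937167 on the minus strand (300 bases, RefSeq, GRCm38.p6).
Cdca8: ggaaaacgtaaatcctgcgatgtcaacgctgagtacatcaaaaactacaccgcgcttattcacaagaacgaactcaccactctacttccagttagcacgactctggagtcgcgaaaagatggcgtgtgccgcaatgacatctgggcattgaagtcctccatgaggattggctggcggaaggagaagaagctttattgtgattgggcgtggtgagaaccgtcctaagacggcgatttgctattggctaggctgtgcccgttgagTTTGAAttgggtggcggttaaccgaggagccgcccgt
The window held 1 match, on the plus strand of the gene. A match on either strand was found in 17.9% of all promoters. Of the 30 mitosis genes with a promoter among these, 22 (73.3%) held a match in any of theirs. This share is of genes and not of promoters. The counts of the cell cycle lists moved with the settings. With a mitochondrial limit of 5% the counts were 8 for mitosis and 2 for replication, and with the barcodes shared between libraries left out they were 18 and 35. With the replicate number as a block, 34 replication genes fell, and without young replicate 1 this count was 5. Of 24 lymphoid priming genes, 4 fell and none rose, which were Il12a (-0.69), Flt3 (-0.60), Cd27 (-0.43) and Ikzf1 (-0.42). This count was 0 with a mitochondrial limit of 5% or without either young library of batch 1, and 10 without CASIN replicate 2. Of 20 genes of granules and myeloid priming, 1 rose, 3 fell and 16 did not pass, with a median of 0.25. Over all genes tested, 8.62% were called higher and 4.26% lower. Cebpa, Gfi1 and Spi1, factors of granulocyte and monocyte fate, fell by 0.78, 0.58 and 0.42, whereas Cebpb, a factor of emergency granulopoiesis, rose by 0.40. The summed level of the list was 1927, 2148 and 2155 CPM in young and 2188, 2612 and 2188 CPM in CASIN libraries.

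Single genes of other kinds fell by more. Slc16a11, a monocarboxylate transporter gene, was at 24.3, 30.0 and 11.9 CPM in young and at 9.91, 9.32 and 3.95 CPM in CASIN libraries. It was lower in every CASIN library and fell by 1.53 (SE 0.12, edgeR adjusted p = 0.000408), with 4.55 CPM ± 0.523 (SD, n = 3) in the aged controls. Shisa8 fell by 1.33, Hmga2, a chromatin protein of fetal stem cells, by 1.26, Wfdc18 by 0.91 (edgeR adjusted p = 0.0568 with the replicate block), Nme2, a nucleoside diphosphate kinase, by 0.91, Tpm2, a tropomyosin, by 0.91 and Hist1h3c, a replication-dependent histone, by 0.89. Wfdc17, Ebi3, a cytokine subunit, Evi2a and Snx20 fell by 0.88, 0.88, 0.87 and 0.85. Of these 11 genes, Slc16a11, Tpm2 and Evi2a had no overlap between groups, beside 3.79% of all genes tested in this direction. The 11 were taken from the largest called falls in the same values, so this count is not a separate result about them. Reads of Hist1h3c and Nme2 may be shared with near-identical copies, which leaves their values uncertain.

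Cdc42, the target of CASIN (chromosome 4, 137319696 to 137357720, minus strand), was at 376, 361 and 365 CPM in young and at 356, 362 and 376 CPM in CASIN libraries. These values overlapped, and the log2 fold change was -0.02 (SE 0.06, edgeR adjusted p = 0.894). CASIN acts on the activity of the protein, which was not measured here. Of 26 tested genes of its effectors and regulators, 5 rose and 1 fell, beside 8.62% higher and 4.26% lower of all genes tested. The effector kinases Cdc42bpb and Tnk2 rose by 1.38 and 1.47 and Cdc42ep5 by 3.27 from at most 0.832 CPM in young libraries, and Arhgdib, an inhibitor of GDP dissociation, fell by 0.34. Dnajb1, a heat shock cochaperone, was at 127, 135 and 47.8 CPM in young and at 167, 156 and 70.1 CPM in CASIN libraries. Within each batch the CASIN value was the higher, and the gene rose by 0.37 (SE 0.08, edgeR adjusted p = 0.0262). Hspa8, the constitutive chaperone of the same list, fell by 0.53, and of 17 cytosolic heat shock genes 2 rose and 3 fell. Hspa5, the chaperone of the endoplasmic reticulum, was at 484, 394 and 915 CPM in young and at 333, 230 and 1193 CPM in CASIN libraries, lower in batch 1 and higher in batch 2, with a log2 fold change of -0.31 (edgeR adjusted p = 0.393). Edem2, which sorts misfolded glycoproteins, did not pass (log2 fold change of -0.24, edgeR adjusted p = 0.0918), and none of 22 genes of protein folding in the endoplasmic reticulum did.

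**Figure D3:**
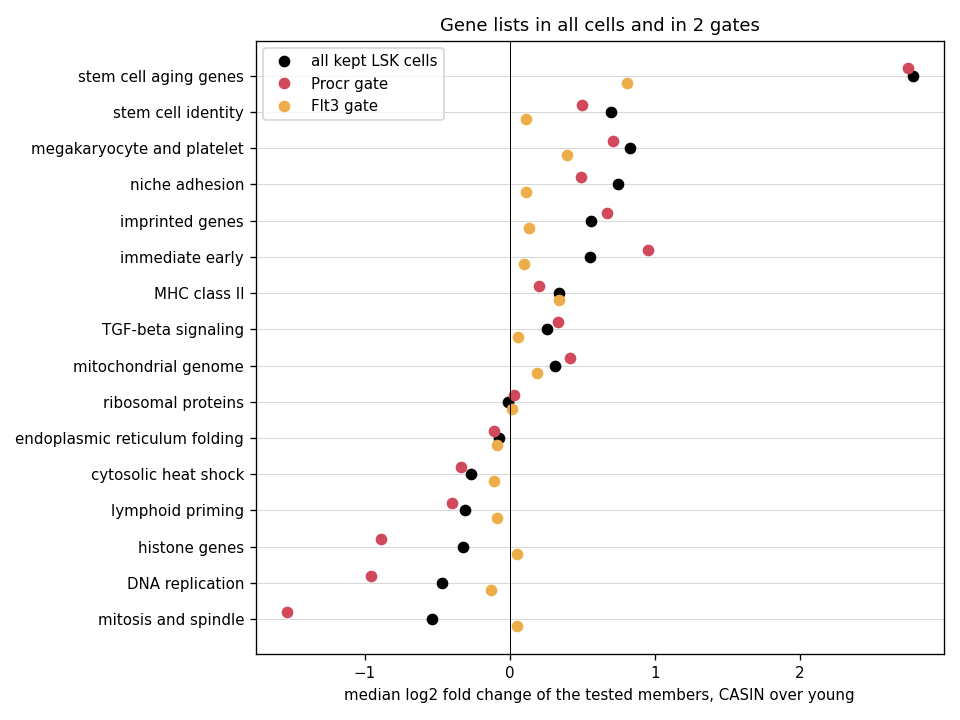
Median log2 fold change of CASIN over young of the tested members of 16 gene lists, in all kept LSK cells (black), in the Procr gate (red) and in the Flt3 gate (yellow). Genes of stem cell aging lie furthest right at 2.78 and 2.74 in all cells and in the Procr gate, and mitosis genes lie furthest left in the Procr gate at -1.54 and at 0.05 in the Flt3 gate.

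To follow the cells nearest to stem cells and those nearest to lymphoid-primed progenitors, cells with at least 1 Procr UMI and no Flt3 UMI were taken as the Procr gate, and cells with at least 1 Flt3 UMI and no Procr UMI as the Flt3 gate. These are gates on RNA and not sorted populations. They held 289 to 1105 and 283 to 1062 cells a library. Procr and Flt3 themselves are not results within the gates.

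In the Procr gate, 2172 of 11256 genes (19.3%) differed, 1192 higher (10.6%) and 980 lower (8.71%). In the cell cycle, falls were found for 33 of 33 tested genes of mitosis and for 39 of 43 genes of replication. Their medians were -1.54 and -0.96, beside 0.00835 over all genes. Summed over the mitosis list, the level was 668, 957 and 932 CPM in young and 199.985, 281 and 439 CPM in CASIN libraries. All CASIN libraries were below all young ones, as in 7.96% of genes tested in the gate, and the gap was wider in batch 1. Cdca8 was at 35.1, 59.1 and 42.5 CPM in young and at 10.3, 13.5 and 14.3 CPM in CASIN libraries, a fall of 1.78 (SE 0.21, edgeR adjusted p = 0.000181). Tk1, which salvages thymidine, Ccne1 and E2f1, regulators of S phase entry, fell by 2.00, 1.58 and 1.51, and Prim1 by 1.44. Of 51 tested histone genes 31 fell, Hist1h3c by 2.33, and 1 rose, which was H1f0, a linker histone of non-dividing cells, at 1.05. Cdkn1c, an inhibitor of Cdks that holds stem cells out of cycle, was at 60.1, 52.1 and 11.3 CPM in young and at 100.3, 91.4 and 34.9 CPM in CASIN libraries and rose by 1.00.

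The Procr gate of CASIN mice also had less of the markers of progenitors. Cd48 was at 53.1, 54.2 and 11.03 CPM in young and at 8.54, 15.8 and 3.23 CPM in CASIN libraries, and fell by 2.03 (SE 0.20, edgeR adjusted p = 7.47e-05). The groups overlapped between batches but not within them. Cd34 was at 265, 249 and 288 CPM in young and at 82.6, 82.6 and 117 CPM in CASIN libraries, with no overlap, and fell by 1.48 (SE 0.10, edgeR adjusted p = 3.58e-06). A different mix of cells within the gate and a different level per cell cannot be told apart in these sums. The cell cycle lists were counted again in narrower gates, which cannot separate these either. Cd48 had a UMI in only 9.46% to 54.5% of kept cells of a library, so cells without one may still express it. With cells that had a Cd48 UMI also left out, falls were found for 27 genes of mitosis and 28 of replication, with medians of -1.65 and -0.76. With a gate of at least 2 Procr UMIs the counts were 26 and 33, with medians of -1.78 and -0.96. Lymphoid priming genes fell in part: of 15 tested in the gate, 6 fell, 1 rose and 8 did not pass. Of all genes tested in the gate, 8.71% were called lower and 10.6% higher. Dntt, which edits antigen receptor joints, fell by 1.39 and Satb1 by 1.35. The summed level of the list was 1758, 1882 and 1336 CPM in young and 1349, 1540 and 1197 CPM in CASIN libraries, and these overlapped.

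Of 33 tested genes of stem cell aging, 32 rose in the Procr gate, with a median of 2.74. Of all genes tested in the gate, 10.6% were called higher. Ramp2 was at 7.06, 5.21 and 3.76 CPM in young and at 99.2, 82.6 and 82.1 CPM in CASIN libraries, and its log2 fold change was 4.06 (SE 0.16, edgeR adjusted p = 7.23e-08). The groups did not overlap, as in 6.38% of genes tested in the gate. Clca3a1, Sbspon, Tm4sf1 and Jam2, a junction adhesion molecule, rose by 4.04, 4.25, 3.50 and 2.67. The rise of Mt1 was tighter within the gate than over all cells. It was at 19.7, 19.02 and 22.3 CPM in young and at 327, 336 and 106 CPM in CASIN libraries, with a log2 fold change of 3.56 (SE 0.28, edgeR adjusted p = 1.62e-05). Young replicate 3, at 119 CPM over all cells, was at 22.3 CPM in the Procr gate and at 16.1 CPM in the Flt3 gate. Of 26 immediate early genes 17 rose, with a median of 0.95. Egr3, Egr2 and Egr1, zinc finger factors of the early growth response, rose by 1.98, 1.83 and 1.42, Nr4a2 by 1.77 and Nr4a1 by 1.10. The summed level of these genes was 8666, 8352 and 2997 CPM in young and 16049, 15991 and 3901 CPM in CASIN libraries, so that the groups overlapped between batches but not within them. The summed level of 9 neutrophil markers was 4.17 to 7.26 CPM in 5 libraries of the gate and 136 CPM in CASIN replicate 3, and the neutrophil genes S100a8 and S100a9 and the granule protease Elane were called higher, at 2.41, 3.09 and 3.84. Elane was at 0.428, 0.781 and 0.807 CPM in young and at 2.30, 8.65 and 19.2 CPM in CASIN libraries. Of 14 genes of granules and myeloid priming tested in the gate, 3 rose, 4 fell and 7 did not pass, with a median of -0.04. Of all genes tested in the gate, 10.6% were called higher and 8.71% lower. The part of neutrophils in the calls of S100a8, S100a9 and Elane was not tested.

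In the Flt3 gate, 18 of 11150 genes differed (0.161%), 16 higher (0.143%) and 2 lower (0.0179%), and 991 had an unadjusted p below 0.05. With the replicate number as a block the count was 34, and it was 3 without young replicate 2 and 33 without CASIN replicate 3. DESeq2 called 40. Of 11 tested genes of MHC class II, 3 rose and 8 did not pass, with a median of 0.34. Of all genes tested in the gate, 0.143% were called higher. Across the alternative settings the count of class II genes called higher was between 0 and 4. H2-Aa was at 26.2, 21.3 and 33.99 CPM in young and at 51.4, 99.2 and 115 CPM in CASIN libraries, with no overlap, as in 1.67% of genes tested in this direction. It rose by 1.72 (SE 0.21, edgeR adjusted p = 0.0207), H2-Eb1 by 1.98 and H2-Ab1 by 0.94. Genes of B and plasma cells summed to 215, 255 and 2862 CPM in young and to 166, 3092 and 9706 CPM in CASIN libraries of this gate, which overlapped. The part of B and plasma cells in the class II rises was not tested. Mt1 was at 7.56, 7.22 and 16.1 CPM in young and at 24.6, 20.6 and 125 CPM in CASIN libraries and rose by 2.10 (SE 0.23, edgeR adjusted p = 0.0138), with CASIN replicate 3 far above the others. Aldh1a1, which oxidises retinaldehyde, Bmpr1a, a receptor of bone morphogenetic proteins, and Maf, a transcription factor, rose by 2.27, 3.89 and 1.68. The falls were those of Slc16a11 at -1.01 and Il21r, the interleukin-21 receptor, at -0.64. Of 21 tested genes of stem cell aging, 4 rose in this gate, with a median of 0.81. None of the 34 mitosis, 43 replication or 26 immediate early genes passed the test, with medians of 0.05, -0.13 and 0.10. Nr4a1 and Nr4a2 passed with the replicate block (log2 fold changes of 0.56 and 0.83, edgeR adjusted p = 0.0307 and 0.0407). The summed mitosis level was 1730, 1961 and 1611 CPM in young and 1918, 1878 and 1673 CPM in CASIN libraries, and these overlapped.

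To ask whether the change between CASIN and young differed between the gates, both gates of each library were fitted in 1 edgeR model with the library as a block. The change differed for 1621 of 11996 genes (13.5%). It was more positive in the Procr gate for 642 (5.35%) and more negative for 979 (8.16%). All 34 mitosis genes and 36 of 43 replication genes were more negative in the Procr gate, with median differences of -1.59 and -0.86 beside 0.00107 over all genes. For Cdca8 the difference was -1.88 (SE 0.16, edgeR adjusted p = 1.55e-07), and it was -1.90 in batch 1 and -1.70 in batch 2. Cd48 and Cd34 also fell further in the Procr gate, with differences of -2.05 and -1.24. Of 26 immediate early genes, 18 were more positive in the Procr gate and none more negative. Klf2 differed by 1.32, Nr4a2 by 0.93 and Nr4a1 by 0.55, while Jund differed by 0.58, with 0.85 in batch 1 and 0.06 in batch 2. Of 33 genes of stem cell aging, 19 were more positive in the Procr gate and none more negative. Only 21 genes of this list passed the filter on low counts in the Flt3 gate. For the others the difference rests on low counts there, which limits what this count can show. MHC class II went the other way, with 7 of 11 genes more negative in the Procr gate and a median of -0.51. This count was 1 with a mitochondrial limit of 5%. H2-Aa differed by -0.59, having risen in both gates. Mt1 differed by 1.51, but by 2.53 in batch 1 and by -0.65 in batch 2, and it did not pass without CASIN replicate 2 or without either young library of batch 1.

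**Figure D4:**
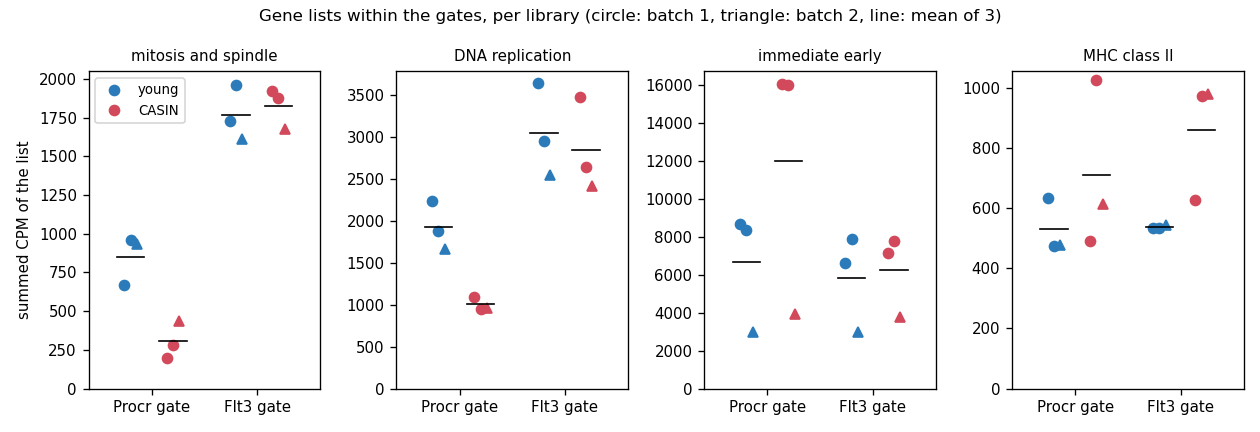
Summed CPM of 4 gene lists in each young (blue) and CASIN (red) library, in the Procr gate and in the Flt3 gate, with circles for batch 1, triangles for batch 2 and a line at the mean of 3. The mitosis sums of the Procr gate lie at 668 to 957 CPM in young and at most 439 CPM in CASIN libraries, whereas those of the Flt3 gate overlap.

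The gates also held different shares of the cells. Each cell was thinned to 4000 UMIs, which left out 93 young and 131 CASIN cells that were shallower. The Procr gate then held 13.3%, 11.8% and 19.8% of young and 25.0%, 18.6% and 33.2% of CASIN cells. CASIN was higher within each batch, but CASIN replicate 2 lay below young replicate 3. The means were 14.96% ± 4.25 and 25.6% ± 7.34 (SD, n = 3 each), a difference of 10.7 percentage points (exact permutation test, two-sided, p = 0.2, where 0.1 is the smallest p that 3 against 3 allows). The Flt3 gate held 30.1%, 33.1% and 15.4% of young and 16.1%, 21.5% and 10.7% of CASIN cells. The difference was -10.1 percentage points (exact permutation test, two-sided, p = 0.3), with -12.8 in batch 1 and -4.68 in batch 2, and the groups overlapped between batches. With a mitochondrial limit of 5%, the Flt3 difference in batch 2 was 1.24 percentage points, of the opposite sign. Without thinning, the Procr gate held 18.3% ± 4.92 of young and 38.3% ± 8.04 of CASIN cells. Any Procr UMI was found in 41.8%, 35.0% and 43.5% of young and 55.4%, 39.2% and 57.4% of CASIN cells, which overlapped. Of these, 542 of 901, 455 of 774 and 238 of 527 young cells also had Flt3 and were left out. In CASIN libraries they were 170 of 619, 175 of 707 and 296 of 1401. The gate thus left out a larger part of the cells with Procr in young than in CASIN libraries. In the immunoglobulin-rich cells, which should lack both genes, 0 of 41 thinned cells had a Procr UMI, which allows a share of up to 7.32% (3 counts of the total), and 2 of 41 (4.88%) had a Flt3 UMI, against 24.5% and 26.3% of 10678 other cells. Their median depth before thinning was 31275 UMIs against 12262. The limit covers counting error only. Without thinning, as for the gates of the gene tests, 2 of 67 immunoglobulin-rich cells (2.99%) had a Procr UMI and 7 of 67 (10.4%) a Flt3 UMI. Among 10876 other cells the shares were 45.3% and 49.4%.

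**Figure D5:**
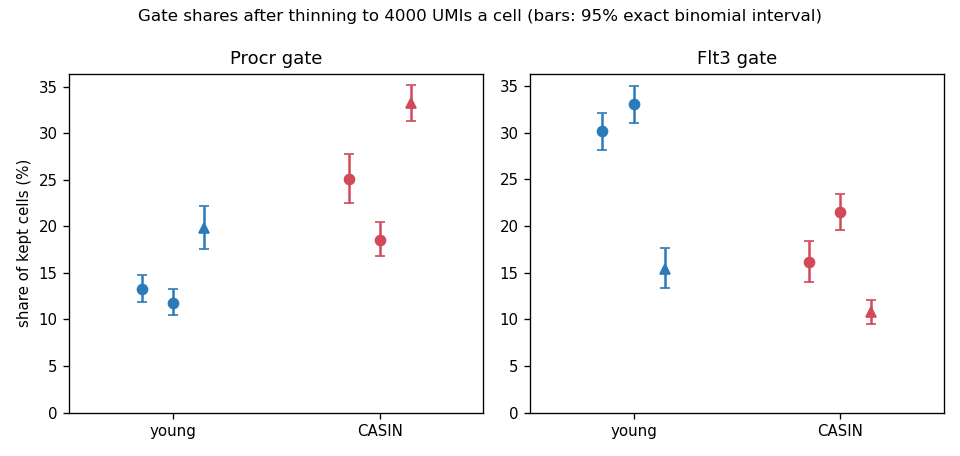
Percent of cells, thinned to 4000 UMIs, in the Procr gate and in the Flt3 gate in each young (blue) and CASIN (red) library, with circles for batch 1, triangles for batch 2 and bars for the 95% exact binomial interval, which covers counting error only. The Procr share spans 11.8% to 19.8% in young and 18.6% to 33.2% in CASIN libraries and the Flt3 share 15.4% to 33.1% and 10.7% to 21.5%, with overlap between libraries in both.

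Most markers of other cells were near their limits of detection or varied between libraries of the same group. Ighg2b, an immunoglobulin heavy chain gene, was at 0.598, 1.75 and 0.499 CPM in young and at 0.0569, 229 and 263 CPM in CASIN libraries, so that CASIN replicate 1 lay below all young libraries. Its log2 fold change of 7.18 (edgeR adjusted p = 0.0325) was 1.65 with the immunoglobulin-rich cells left out (edgeR adjusted p = 0.270). Of 13 B and plasma cell genes, Iglc1 alone passed the test over all cells, at 5.84, and at 3.54 with those cells left out, and the summed level was 313 to 10241 CPM in young and 349 to 12425 CPM in CASIN libraries. Of 6 tested T and NK cell genes, Klrb1c rose by 3.44 and Nkg7 fell by 0.37. Over all genes tested, 8.62% were called higher and 4.26% lower. The T and NK cell list summed to 112, 114 and 83.9 CPM in young and 66.8, 76.2 and 33.7 CPM in CASIN libraries of the Procr gate, without overlap. No overlap in this direction was found for 7.96% of genes tested in the gate. Only 2 genes of the list were tested there, of which 1 rose and 1 fell. No gene of 4 erythroid, 3 neutrophil, 5 monocyte and 3 basophil markers tested passed over all cells. Kdr, a receptor of endothelial growth factor, rose by 1.02 among 6 tested genes of stroma and endothelium. In the Procr gate the summed level of that list was 7.06, 4.17 and 10.49 CPM in young and 17.7, 35.4 and 18.6 CPM in CASIN libraries, without overlap, as in 6.38% of genes tested in the gate. Endothelial genes such as Vwf, Selp and Cldn5 also rose there, and the part of stroma or endothelial cells in those rises was not tested.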

How the data were processed

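Single-cell 3′ RNA libraries of sorted LSK cells were counted by the authors with Cell Ranger 3.1.0 on GRCm38, and they deposited raw UMI counts per gene and barcode for 31053 genes, 1 library per sample. Barcodes with 1000 to 40000 UMIs, at most 6000 genes and at most 10% mitochondrial UMIs were kept. Library totals were 20235579 to 42780953 UMIs. Scrublet marked 0.557% of kept cells. These were kept, and leaving them out, or the 5% of cells with the highest scores, was an alternative.

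UMIs were summed per library, and per library and gate, and tested with edgeR 4.0.16 (TMM scaling, filterByExpr, quasi-likelihood test) in R 4.3.3, with the sequencing batch and the group as terms. CPM are the UMIs of a gene divided by all UMIs of the summed cells, on the usual scale of counts per 1e6. Genes were called at a Benjamini-Hochberg adjusted p below 0.05. On simulated counts for all LSK cells (13276 genes), 62.7% of genes changed by a log2 fold change of 1 were recovered, and 8.33% of calls were false. These values were 85.1% and 10.8% for the Procr gate and 91.0% and 8.38% for the Flt3 gate. For the difference between gates they were 65.7% and 3.73%. That simulation was simpler, with the same dispersion for every gene and no batch effect. Its values are therefore not comparable with the others and may not hold for the real counts. Shares of cells were compared with exact permutation tests. DESeq2 1.42.0, other scalings, filters, gates and each library left out were tried as alternatives.

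The replicate numbers come from the sample titles. Deviations from the group means of same-numbered young and CASIN libraries correlated at 0.77, 0.75 and 0.88, and those of different numbers within batch 1 at 0.69 and 0.59, so the replicate number as a block was an alternative fit.

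Named genes were, over all cells, the 12 largest called rises and the 12 largest called falls at a mean of at least 10 CPM, 6 genes of the study, up to 4 called members of each of 37 lists and the 8 smallest adjusted p in each gated comparison. Further list members, and Elane, were named after their values were seen. Results for some genes are not reported here. The members and lists were chosen with earlier results of these data known. The small RNA libraries of surface proteins were not used here.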

Additional observations from a re-analysis of the deposited data

Results flagged for a closer look

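The results below were singled out because the change between CASIN and young differed between the Procr gate and the Flt3 gate, by edgeR's quasi-likelihood test of that difference with Benjamini-Hochberg adjustment. Each value is the log2 change in the Procr gate minus that in the Flt3 gate. Among genes of progenitors and lymphoid cells, the difference was -2.05 for Cd48, -1.84 for Tespa1, a gene of T cell receptor signaling, -1.69 for Plac8, -1.47 for Nkg7, -1.27 for Serpinb1a, an inhibitor of granule proteases, and -1.24 for Cd34. For genes of the cytoskeleton and of division it was -1.88 for Cdca8, -0.91 for Stmn1, which destabilises microtubules, and -0.91 for Tmsb10, which binds actin monomers. For MHC class II it was -0.59 for H2-Aa, -0.80 for H2-Eb1 and -0.55 for H2-Ab1. Tnfsf13os, annotated antisense to Tnfsf13, differed by -1.36, having risen by 1.22 in the Flt3 gate with a log2 change of -0.13 in the Procr gate. Whether reads were assigned by strand is not given in the sources used here.

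Immediate early genes differed in the other direction, by 0.55 for Nr4a1, 0.93 for Nr4a2, 1.32 for Klf2 and 0.58 for Jund. Mt1 differed by 1.51, with the opposite sign in batch 2 (-0.65).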

How the results depend on the processing

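Over all LSK cells the count of 1709 genes moved to 511 with all 9 libraries in the fit, 455 with a mitochondrial limit of 5% and 10 with no batch term, and ranged from 624 to 1898 when 1 library was left out. DESeq2 called 2103, with 1175 higher and 928 lower, against 1144 and 565. In the Procr gate the count of 2172 moved to 1387 with cells holding a Cd48 UMI left out, 1291 with the limit of 5% and 3 with no batch term (1316 to 2479 with 1 library left out; 1316 without young replicate 2 and 1404 without young replicate 1). In the Flt3 gate the count of 18 moved to 40 with DESeq2, 32 in batch 1 alone, 94 with no filter on low counts, 34 with the replicate block and 0 with no batch term, and ranged from 3 to 33 with 1 library left out. The difference between gates ranged from 1052 to 1685 genes, with 1052 without either young library of batch 1. With 1 library left out, the difference in shares ranged from 6.85 to 14.2 percentage points in the Procr gate and from -15.5 to -6.68 in the Flt3 gate. It was 20.0 and -14.9 without thinning, 6.92 and -8.10 with cells thinned to 2000 UMIs, 6.32 and -7.48 with the limit of 5%, and 5.84 and -3.75 with gates of at least 2 UMIs. Cdc42, which was not called, changed sign to 0.0096 with the limit of 5%, 0.0038 without CASIN replicate 1 and 0.0085 without young replicate 1, within a range of -0.056 to 0.0085 with 1 library left out, and Cdca8 in the Flt3 gate, also not called, to -0.0036 with the gate set on thinned cells and -0.027 with shared barcodes left out. Besides the values given in the report, the replicate block moved Chordc1 (adjusted p = 0.0532) and, in the Procr gate, H2-Eb1 (adjusted p = 0.0606) past the threshold, and changed no other call of a named gene. Of the other values of named genes under an alternative, 3100 kept their direction and side of the threshold, 395 no longer passed and 20 newly passed, and for the lists 352 counts stayed within 1.5 times and 63 did not. The cause was not tested. The alternatives on shared barcodes, immunoglobulin-rich cells, batch 1 alone and Cd48 were chosen after seeing the data. With 3 libraries a group, changes under a log2 fold change of 1 were often below detection.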

Other observations

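Of 21 tested genes listed for niche adhesion, 11 rose and none fell over all LSK cells, with a median log2 fold change of 0.74. Over all genes tested, 8.62% were called higher. The rises were led by Cldn5, Jam2 and Selp, and Cldn5 and Selp were also counted in lists above. They included Lsr at 2.55, Itga6, an integrin subunit that binds laminin, at 1.06 and Itga5 at 1.02. The summed level was 833, 828 and 1904 CPM in young and 1187, 1140 and 1996 CPM in CASIN libraries. The groups overlapped between batches but not within them. Of 14 tested imprinted genes, 7 rose and none fell, with a median of 0.56, among them Dlk1 at 2.39, Meg3, a noncoding RNA of the same locus, at 1.97 and Ndn at 1.69. Of 18 genes of TGF-beta signaling, 6 rose, including the coreceptor Tgfbr3 at 1.57 and the inhibitors of differentiation Id1 at 1.29 and Id2 at 0.86.

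Among 19 genes of the nuclear lamina and of chromatin regulation, Lmna rose by 0.63, and Lmnb1, Ezh2, Tmpo, Kat8 and Lbr fell by 0.57, 0.51, 0.40, 0.37 and 0.33. In the Procr gate Lmnb1 fell by 1.32 and Ezh2 by 0.94. Of 13 genes of the mitochondrial genome, 5 rose, from mt-Co2 at 0.31 to mt-Nd3 at 0.45, in cells already limited to 10% mitochondrial UMIs. Over all LSK cells, 8.62% of genes tested were called higher and 4.26% lower.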
